A study of Mus musculus with 9 samples.

Results

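The neurotrophin genes described here are the ligands Bdnf, Ntf3 and Ntf5, the receptor tyrosine kinases Ntrk2 (TrkB) and Ntrk3 (TrkC), the shared receptor Ngfr (p75) and the sorting receptor Sort1 (sortilin). A probe set, the group of array probes that measures a transcript, was taken as a member when the array annotation gave it exactly 1 gene symbol and that symbol was among these 7 names. Of the 7 genes, 6 had such a probe set, out of 22180 genes so named on the arrays. The set was selected on values of these arrays, since the difference of Ntrk3 between the tumour groups was known when the genes were chosen. Only Sort1 had more than 1 probe set, and the brighter of them by mean was used. No probe set is listed under the symbol Ntf3 in that annotation, so no level of Ntf3 is given.

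The arrays held RNA from whole, frozen mammary tissue of 9 female FVB mice, 3 in each of 3 groups, each replicate a different mouse. Normal glands came from wild-type littermates. Non-metastatic and metastatic mammary tumours came from MMTV-Wnt1 transgenic mice (genotype Wnt1+/-), in which a promoter active in mammary epithelium drives the Wnt1 growth factor. The metastatic status is that of the tumour as the submitters labelled it, and tissue from metastases was not analysed here. All mice of the 3 groups drank 6% sucrose with 200 ug/ml doxycycline from 6 weeks of age, controls included, and tumours were collected at a size of 20 mm. At collection the normal mice were 542 ± 12.1 days old, the mice with non-metastatic tumours 291 ± 66.3 days and those with metastatic tumours 288 ± 10.2 days (mean ± SD, n = 3 each). Age and tumour status therefore cannot be told apart in any comparison with normal gland.

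Neurotrophins are secreted growth factors that keep neurons alive and shape their connections, and they also act on epithelium, muscle, vessel and immune cells. Each mature neurotrophin binds a preferred Trk receptor: BDNF and the product of Ntf5 bind TrkB, and the product of Ntf3 binds TrkC above all. The Trk receptors signal through the MAP kinase, PI3 kinase and phospholipase C pathways. The p75 receptor binds all mature neurotrophins, and together with sortilin it binds their uncleaved precursors. TrkC is also known in cancer through the fusion of its kinase with other genes, and p75 is an established marker of basal cells in several epithelia.

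Values are log2 expression values, so a difference of 1 is a 2-fold difference. A probe set's own brightness enters its level, so levels are compared between samples and not between genes. The Wnt1 transcript, the check of the transgene, stood at 5.59 ± 0.13 in normal glands, 12.02 ± 0.33 in non-metastatic and 11.75 ± 0.48 in metastatic tumours (SD, n = 3 each). Normal gland 2 differed from normal glands 1 and 3 in its other tissues: the mean log2 value of its epidermis markers was 10.59 against 5.62 and 5.63, that of its skeletal muscle markers 9.71 against 5.77 and 6.17, and that of its milk genes 7.58 against 12.15 and 12.30. Calls that end without this gland are named beside the results. Among the tumours, metastatic tumour 2 had milk genes at 7.56, against 10.33 to 12.40 in the other 5 tumours.

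The Trk receptors went different ways across the groups. Ntrk3 was high in normal glands and metastatic tumours and low in non-metastatic tumours, whereas Ntrk2 was lower in tumours of both kinds than in normal gland. Because that difference was known at the choice of genes, Ntrk3 is described without a test, and differences between the tumour groups are described for every member without a test.

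**Figure D1:**
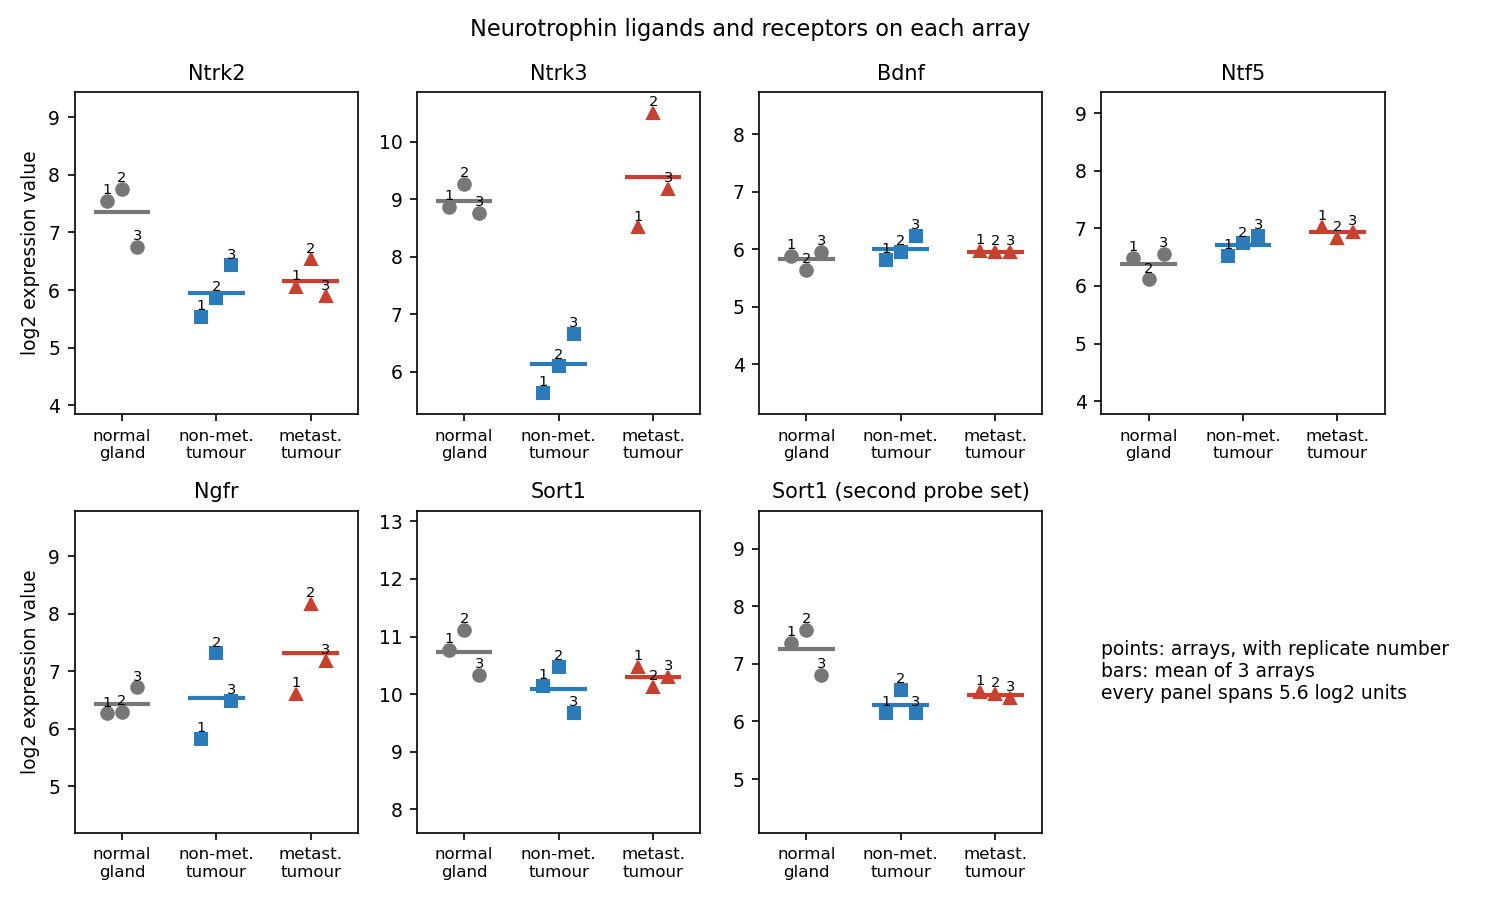
The log2 expression value (vertical axes, log2 units) of each member on each of 9 arrays, by group, with points as arrays numbered by replicate and bars as the mean of 3 arrays. All panels span the same number of log2 units. The non-metastatic tumours lie between 5.63 and 6.66 for Ntrk3, below every other array, and all 6 tumours lie below the 3 normal glands for Ntrk2.

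Ntrk3 encodes TrkC, the receptor of neurotrophin-3. Its log2 value was 8.87, 9.26 and 8.76 in normal glands 1 to 3, 5.63, 6.10 and 6.66 in non-metastatic tumours 1 to 3, and 8.51, 10.50 and 9.18 in metastatic tumours 1 to 3. Every non-metastatic tumour lay below every other sample, while the metastatic tumours overlapped the normal glands, with tumour 1 below and tumour 2 above all of them. The group means were 8.96 ± 0.26, 6.13 ± 0.51 and 9.39 ± 1.01 (SD, n = 3 each). In the order of the levels, the metastatic tumours and the normal glands, 0.43 apart, did not differ beyond their spread. The non-metastatic mean was 3.26 lower than the metastatic mean, a 9.61-fold difference, and its difference from the normal mean was -2.83. The non-metastatic values lay near the medians of the arrays over all probe sets, 5.80 to 5.94. Of all genes, 14.3% had every non-metastatic tumour below every normal gland. By the size of the difference between tumour groups, Ntrk3 was number 7 of the 17478 genes measured above a low-value filter. Since Ntrk3 was chosen with that difference known, nothing is read from this rank.

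With each array left out in turn, the difference of Ntrk3 between the tumour groups ranged from 2.71, without metastatic tumour 2, to 3.71. Ntrk3 was the only 1 of 6 members whose values in the tumour groups did not overlap. Among all 17478 genes the groups did not overlap for 10.3%, with 4.41% higher in metastatic tumours, and since this contrast was used to choose the members, nothing is read from that count. It was 2 or 3 members without non-metastatic tumour 2, non-metastatic tumour 3 or metastatic tumour 2, where fewer values are compared.

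Genes with a pattern like that of Ntrk3 were ranked by the root mean square difference between values centred on each gene's own mean over the 9 arrays. Only genes past the low-value filter were ranked, and predicted or clone-named genes (such as Gm or Rik names) were left out. The 5 nearest were Zfhx4 at 0.60, Mme at 0.60, Cavin2 at 0.65, Fmo2 at 0.70 and Slc4a4 at 0.72 log2 units. Zfhx4 encodes a zinc finger homeobox protein, Mme the peptidase neprilysin (CD10), Cavin2 a caveolar coat protein, Fmo2 a flavin monooxygenase and Slc4a4 a sodium bicarbonate cotransporter. Mme, a surface marker used for myoepithelial cells of the breast, stood at 11.02, 10.82 and 10.10 in normal glands, 7.96, 6.93 and 8.42 in non-metastatic tumours and 9.89, 11.28 and 9.58 in metastatic tumours. As for Ntrk3, its 3 non-metastatic tumours were the lowest of all samples and metastatic tumour 2 was the highest. Mme was picked on these same arrays for its likeness to Ntrk3, so nothing is read from the shared pattern. The spread of Ntrk3 over the 9 arrays had an SD of 1.64, the only member with an SD of at least 1, so nearest genes are given for it alone.

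**Figure D2:**
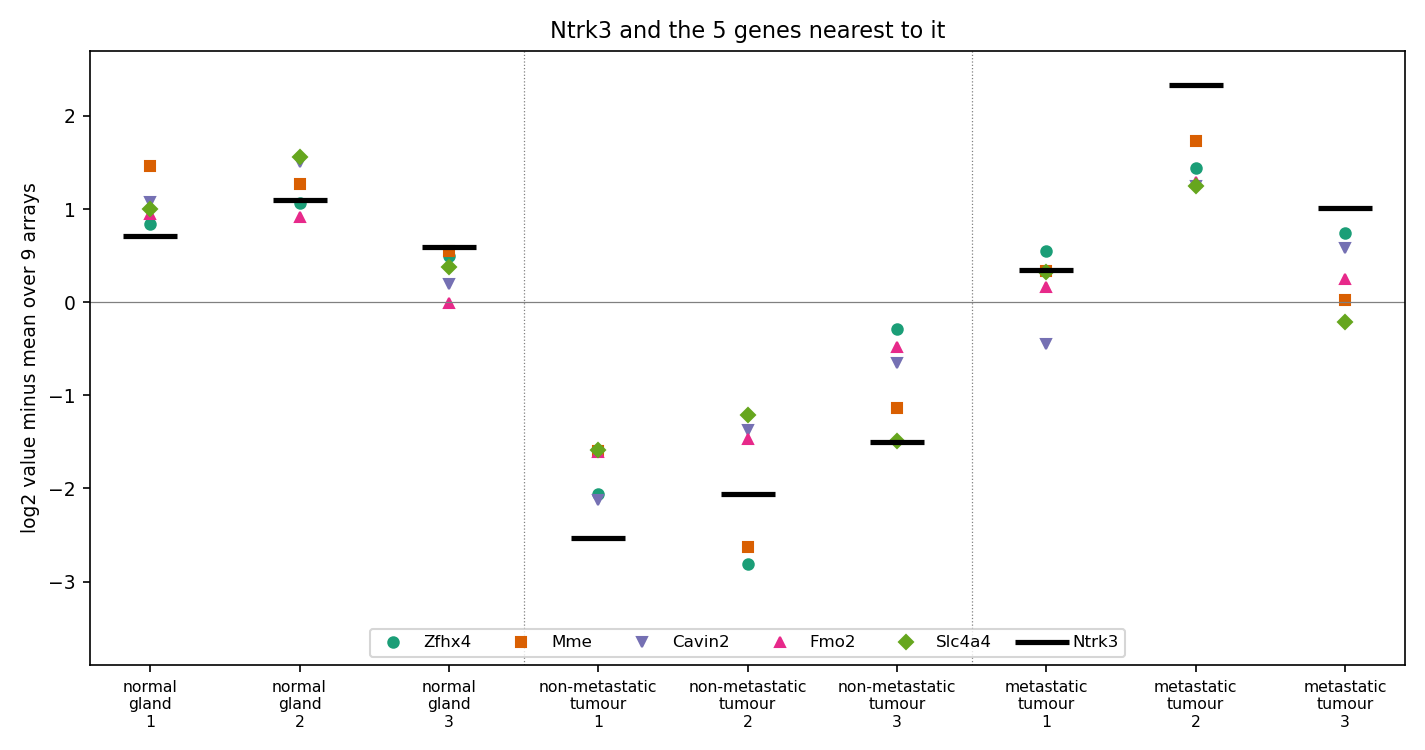
Log2 value after subtracting each gene's mean (vertical axis, log2 units) for Ntrk3 (black bars) and the 5 genes nearest to it (coloured points), on each array (horizontal axis). Non-metastatic tumours lie below 0 and normal glands at or above about 0 for all 6 genes, and Ntrk3 lies highest of them in metastatic tumours 2 and 3.

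Markers of basal and myoepithelial cells moved with Ntrk3 among the tumours. The mean log2 value over 13 measured markers of the list was 9.05, 9.34 and 9.03 in normal glands, 8.10, 8.56 and 9.55 in non-metastatic tumours and 9.62, 9.87 and 9.65 in metastatic tumours. It was higher in every metastatic than in every non-metastatic tumour, but non-metastatic tumour 3 came close to the metastatic ones for this list and stayed low for Ntrk3. Of the 13 markers, 11 were higher in the metastatic mean, with a median difference of 0.93. Myh11, smooth muscle myosin heavy chain and 1 of these markers, had means of 10.25, 8.06 and 10.65 in normal gland, non-metastatic and metastatic tumours. The list as a whole was less clear against normal gland, with 6 markers lower and 7 higher in tumours. Its median change was -0.39 in non-metastatic and 0.53 in metastatic tumours, with 1 of 13 called in each (7.69%, against 18.8% and 13.3% of all genes). For the list, non-metastatic tumour 3 lay above every normal gland. In whole tissue, fewer cells of a type and less RNA per cell cannot be told apart, and the part of basal cells in the level of Ntrk3 was not tested.

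Markers of Schwann cells, the glia of nerves, which are known to carry p75 and TrkC, did not separate the tumour groups. The mean over 14 measured markers was 7.02, 6.86 and 6.86 in normal glands, 7.03, 6.77 and 6.81 in non-metastatic and 7.09, 6.94 and 6.80 in metastatic tumours. Of these markers 6 were higher in the metastatic mean and the median difference was -0.07. The mean over 13 markers of neurons and axons lay between 5.47 and 5.72 in normal glands, 5.41 and 5.62 in non-metastatic tumours and 5.41 and 5.50 in metastatic tumours, so the tumour groups overlapped.

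**Figure D3:**
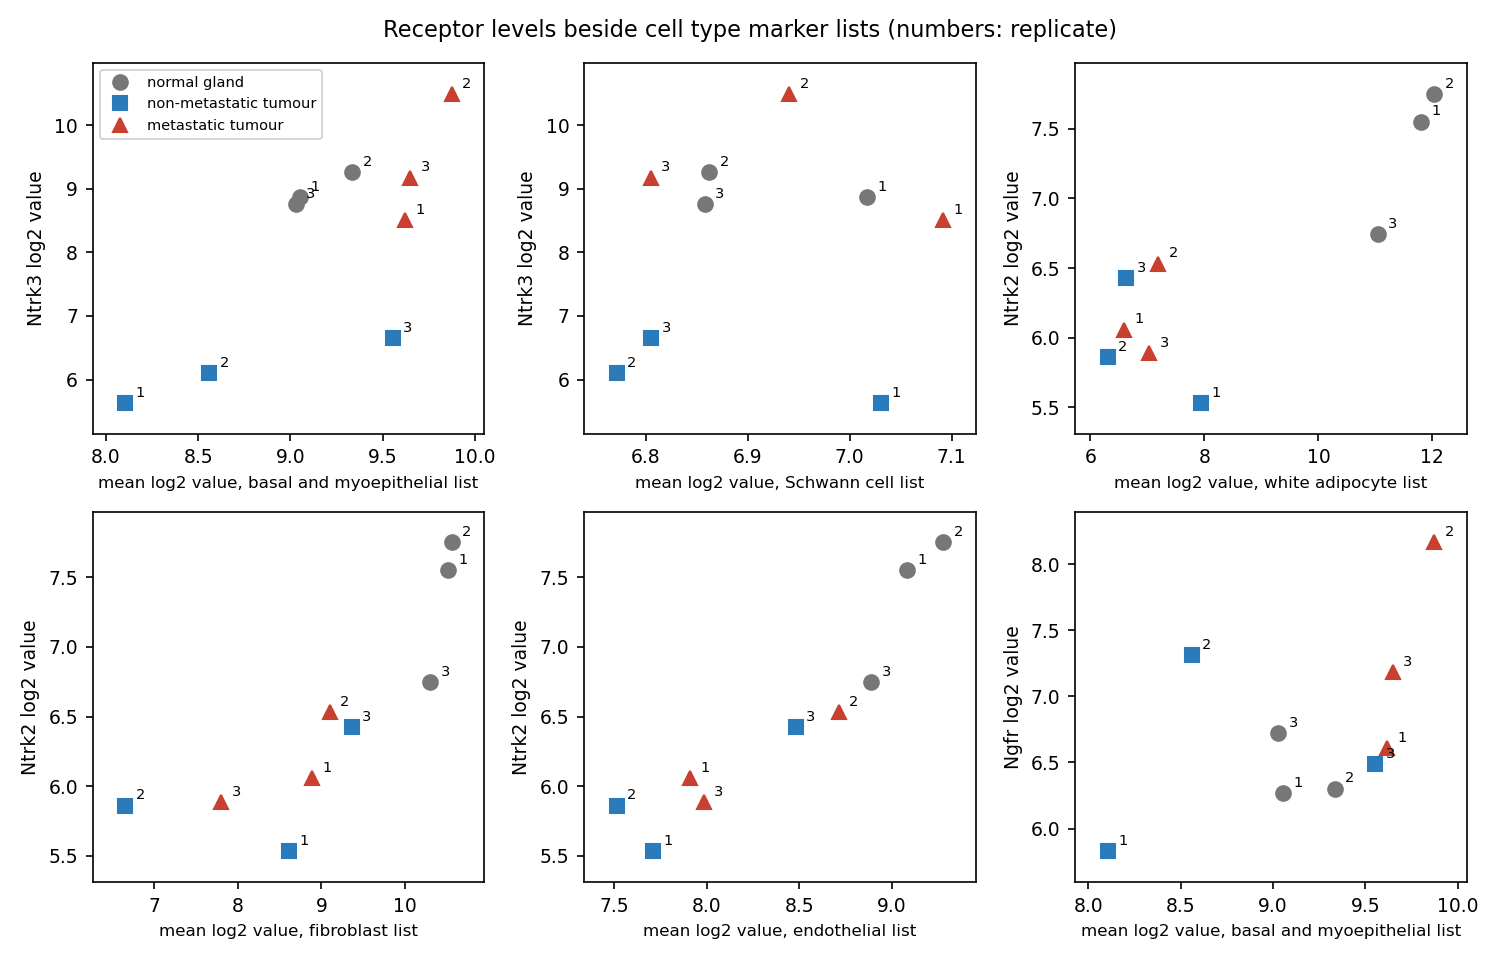
The log2 value of Ntrk3, Ntrk2 or Ngfr (vertical axes) beside the mean log2 value of a list of cell type markers (horizontal axes) on each array, numbered by replicate. Ntrk3 is low in all 3 non-metastatic tumours although tumour 3 has a basal marker mean of 9.55. The tumours lie below the normal glands for Ntrk2 and for the white adipocyte, fibroblast and endothelial lists.

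Ntrk2 encodes TrkB, the receptor of BDNF, and the start of its transcript is shown because it was the receptor that passed the test in both tumour groups. The RefSeq window of 300 bases around the start, 250 before it and 50 after, lies on the plus strand of GRCm38.p6 at chr13:58806319-58806618. Capitals mark the bases from the transcript start on.
Ntrk2: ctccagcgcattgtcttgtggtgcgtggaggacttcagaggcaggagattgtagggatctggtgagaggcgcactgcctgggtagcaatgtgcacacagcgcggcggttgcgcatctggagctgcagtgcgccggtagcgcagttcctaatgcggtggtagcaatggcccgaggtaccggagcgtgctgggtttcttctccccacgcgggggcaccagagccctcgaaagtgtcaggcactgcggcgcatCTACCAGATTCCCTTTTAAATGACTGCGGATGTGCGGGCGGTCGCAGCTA

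Because the tumours carry a Wnt1 transgene, the windows were searched on both strands for CTTTGAA and CTTTGAT, the letters bound by the TCF and LEF factors of the Wnt pathway. The Ntrk2 window holds neither. The table of windows had entries for 4 of the 7 members, 11 windows in all, of which 7 belong to Bdnf, 2 to Ntf3, 1 to Ngfr and 1 to Ntrk2. The motif occurred in 1 of the 11, a window of Ntf3 at chr6:126164911-126165210, and in 8.65% of 32851 windows of the same length over all genes. A match is a description of the letters only.

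The log2 value of Ntrk2 was 7.55, 7.75 and 6.75 in normal glands 1 to 3, 5.53, 5.86 and 6.43 in non-metastatic tumours 1 to 3, and 6.06, 6.53 and 5.89 in metastatic tumours 1 to 3. All 6 tumours lay below all 3 normal glands, normal gland 3 being the lowest of these, and the tumour groups overlapped. The means were 7.35 ± 0.53, 5.94 ± 0.45 and 6.16 ± 0.33 (SD, n = 3 each), so the tumour means were 0.22 apart, less than their spread. The tumour values lay near the medians of the arrays over all probe sets, 5.80 to 5.94. Of all genes, 26% had tumours and normal glands without overlap, 10.3% with every tumour below every normal gland.

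In limma, a linear model fitted to all 17478 genes at once with Benjamini-Hochberg adjustment, a gene was called at an adjusted p under 0.05. Both tumour groups are compared with the same 3 normal glands, so their results are not independent of each other. Ntrk2 fell by 1.41 in non-metastatic tumours (SE 0.32, 95% interval -2.15 to -0.67, limma adjusted p = 0.023), which is 2.65-fold lower. In metastatic tumours it fell by 1.19 (SE 0.32, 95% interval -1.93 to -0.45, limma adjusted p = 0.047), 2.28-fold lower. Over both tumour groups it fell by 1.30 (SE 0.28, limma adjusted p = 0.015), 2.46-fold lower and lower in 6 of 6 tumours.

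These calls rest on few arrays. Over both tumour groups the limma adjusted p of Ntrk2 was 0.063 without normal gland 1 and, with a change of -1.10, 0.065 without normal gland 2, the gland with the high epidermis and muscle markers. For non-metastatic tumours the call also ended without normal gland 1, normal gland 2, non-metastatic tumour 1 or non-metastatic tumour 2, at limma adjusted p of 0.076, 0.073, 0.059 and 0.068. For metastatic tumours it ended in 7 of 9 fits with 1 array left out, with limma adjusted p up to 0.14, and held only without normal gland 3 or non-metastatic tumour 3.

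Marker lists of cells of the fat pad, in which the mammary ducts lie, were lower in all tumours than in normal gland, as Ntrk2 was. The mean over 9 white adipocyte markers was 11.04 to 12.03 in normal glands, 6.30 to 7.93 in non-metastatic and 6.60 to 7.19 in metastatic tumours, and all 9 fell in both comparisons. The mean over 9 fibroblast markers was 10.30 to 10.56 in normal glands against 6.66 to 9.36 and 7.80 to 9.10 in the tumour groups. For 8 endothelial markers it was 8.89 to 9.28 against 7.51 to 8.48 and 7.91 to 8.71. Every marker of these 3 lists had a lower mean in tumours. Of 9 fibroblast markers 4 fell in non-metastatic and 3 in metastatic tumours, and of 8 endothelial markers 3 fell in each. Of all genes, 7.6% were called lower in non-metastatic and 6% in metastatic tumours, and 11.2% and 7.35% were called higher. Mast cell markers, 8 in number, were also low in all 6 tumours, with a mean of 7.48 to 8.49 in normal glands against 5.48 to 6.65 and 5.47 to 5.93, and of 7 tested 5 fell and 1 rose in both comparisons. Macrophage, skeletal muscle and epidermis markers, 7, 10 and 10 in number, also all had lower means in tumours, and none of those tested was called. For these lists the tumours overlapped the normal glands, with 4, 3 and 1 of 6 tumours below all normal glands. The skeletal muscle and epidermis lists were high in normal gland 2 alone, at 9.71 and 10.59. Normal glands 1 and 3 stood at 5.77 and 6.17 for skeletal muscle and at 5.62 and 5.63 for epidermis, within the range of the tumours. Among the tumours, non-metastatic tumour 1 was lowest for Ntrk2, at 5.53, and highest for the adipocyte list, at 7.93. Metastatic tumour 2 was highest for Ntrk2, at 6.53, and for the endothelial list, at 8.71. The part of any of these cell types in the lower level of Ntrk2 was not tested.

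Ngfr encodes p75, the receptor shared by all neurotrophins. Its log2 value was 6.27, 6.30 and 6.72 in normal glands, 5.83, 7.31 and 6.49 in non-metastatic tumours and 6.61, 8.16 and 7.18 in metastatic tumours. All groups overlapped, and metastatic tumour 2 was highest. The means were 6.43 ± 0.25, 6.54 ± 0.74 and 7.32 ± 0.79 (SD, n = 3 each). Neither difference from normal gland passed the test: it was 0.11 in non-metastatic tumours (95% interval -0.94 to 1.16, limma adjusted p = 0.89) and 0.89 in metastatic tumours (95% interval -0.16 to 1.94, limma adjusted p = 0.23). The interval in non-metastatic tumours covers both a fall and a rise. The metastatic value was 0.46 without metastatic tumour 2 and 1.24 without metastatic tumour 1, and the non-metastatic value was -0.27 without non-metastatic tumour 2 and 0.47 without non-metastatic tumour 1. The basal marker list moved with Ngfr in 5 of the 6 tumours, which had the same order for both, from non-metastatic tumour 1, the lowest, to metastatic tumour 2, the highest. Non-metastatic tumour 2 did not follow, with Ngfr at 7.31 and the list at 8.56. The 5 tumours were set apart with the values in view, and metastatic tumours 1 and 3 were close for the list, at 9.62 and 9.65. The normal glands did not share an order: normal gland 3 was highest for Ngfr and, at 9.03, lowest for the list. The part of basal cells in the level of Ngfr was not tested.

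Sort1 encodes sortilin, which carries neurotrophin precursors inside the cell and binds them with p75 at its surface. It had 2 probe sets, and they gave different calls. On the probe set with the higher mean, the log2 value was 10.76, 11.11 and 10.34 in normal glands, 10.14, 10.47 and 9.67 in non-metastatic tumours and 10.47, 10.12 and 10.29 in metastatic tumours. Normal gland 3 overlapped the tumours there, and the differences from normal gland were -0.64 (SE 0.25, limma adjusted p = 0.11) and -0.44 (SE 0.25, limma adjusted p = 0.27). Over both tumour groups the difference was -0.54 (limma adjusted p = 0.11).

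On the second Sort1 probe set the log2 value was 7.36, 7.58 and 6.81 in normal glands, 6.15, 6.55 and 6.15 in non-metastatic tumours and 6.51, 6.48 and 6.41 in metastatic tumours. Here all 6 tumours lay below all 3 normal glands. Used in place of the first, it fell by 0.97 in non-metastatic tumours (limma adjusted p = 0.017) and by 0.79 in metastatic tumours (limma adjusted p = 0.041). The call for Sort1 thus differed between its probe sets. It also differed on the first probe set itself: with array weights Sort1 was called in non-metastatic, metastatic and both tumour groups (limma adjusted p = 0.038, 0.044 and 0.012), and without normal gland 3 it was called over both groups, at -0.74 (limma adjusted p = 0.0498). The transcripts each probe set covers are not given in the sources used here.

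Of the ligands, Bdnf encodes brain-derived neurotrophic factor. Its log2 value was 5.89, 5.64 and 5.95 in normal glands, 5.82, 5.95 and 6.23 in non-metastatic tumours and 5.97, 5.95 and 5.95 in metastatic tumours. The groups overlapped throughout, with means of 5.82 ± 0.17, 6.00 ± 0.21 and 5.95 ± 0.01 (SD, n = 3 each). The differences from normal gland were 0.17 (95% interval -0.13 to 0.48, limma adjusted p = 0.40) and 0.13 (limma adjusted p = 0.55), neither past the test. All these values lay near the medians of the arrays over all probe sets, 5.80 to 5.94. With no detection calls used, it is not known whether Bdnf was above background, so the lack of a call says little. On 4 of the 9 arrays Bdnf had one and the same value, as 2999 of 41345 probe sets (7.25%) did on at least 4 arrays, so its small spread in metastatic tumours is not a measure of biological spread alone.

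Ntf5 encodes the neurotrophin that shares TrkB with BDNF. Its log2 value was 6.49, 6.11 and 6.56 in normal glands, 6.53, 6.74 and 6.88 in non-metastatic tumours and 7.03, 6.84 and 6.93 in metastatic tumours. All 3 metastatic tumours lay above all normal glands, whereas non-metastatic tumour 1 did not. The means were 6.39 ± 0.24, 6.71 ± 0.18 and 6.93 ± 0.09 (SD, n = 3 each).

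Ntf5 rose by 0.54 in metastatic tumours (SE 0.15, 95% interval 0.20 to 0.89, limma adjusted p = 0.048), a 1.46-fold rise and higher in 3 of 3 tumours. In non-metastatic tumours the difference was 0.33 (SE 0.15, limma adjusted p = 0.16) and did not pass. Whether the tumour groups differ is not tested here, so a call in one and not in the other shows no difference between them. Over both tumour groups Ntf5 rose by 0.44 (SE 0.13, limma adjusted p = 0.044). Without normal gland 2, the lowest sample for Ntf5, the limma adjusted p was 0.12 for metastatic tumours and 0.15 over both groups, where the difference was 0.30. The metastatic call also ended without normal gland 1, non-metastatic tumour 2 or any 1 of the metastatic tumours, at limma adjusted p of 0.065 to 0.14. The call over both groups ended without any array but normal gland 3 and non-metastatic tumour 1.

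**Figure D4:**
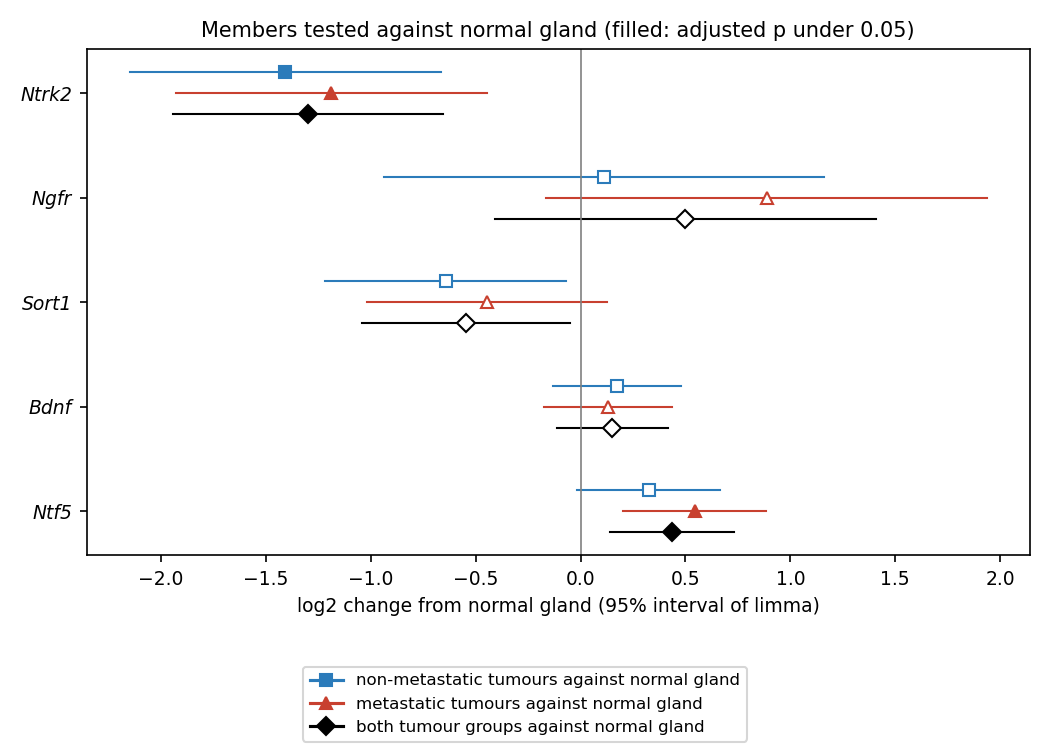
Log2 change from normal gland (horizontal axis, log2 units) with the 95% interval of limma for the 5 members tested, for each tumour group and both together, with filled symbols at an adjusted p under 0.05. Filled symbols are at Ntrk2 in all 3 comparisons and at Ntf5 in metastatic tumours and both groups together, where its changes are 0.54 and 0.44.

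Of the 5 members tested, 1 was called in non-metastatic tumours (Ntrk2), where 18.8% of all genes were called and 7.6% were called lower, as Ntrk2 was. In metastatic tumours 2 were called (Ntrk2 and Ntf5), against 13.3% of all genes, 6% lower and 7.35% higher. Over both tumour groups Ntrk2 and Ntf5 were called, against 22.8% of all genes, 9.13% lower and 13.6% higher. With so few members these counts cannot be set apart from the background. The median change of all genes was 0.05 in non-metastatic and 0.04 in metastatic tumours.

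Non-metastatic tumour 1 was the lowest tumour for Ntrk2, Ntrk3, Bdnf, Ntf5 and Ngfr, and metastatic tumour 2 the highest for Ntrk2, Ntrk3 and Ngfr. For Ntrk3 every metastatic tumour lay above every non-metastatic one, but for Ntrk2 non-metastatic tumour 3 lay above metastatic tumours 1 and 3.

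Further genes of neurotrophin signalling were taken from lists that name 82 genes, of which 73 were tested. In non-metastatic tumours 10 rose and 5 fell, which is 20.5% called against 18.8% of all genes. In metastatic tumours 7 rose and 3 fell, 13.7% against 13.3%. The share called among these genes was thus close to that among all genes. Without normal gland 1 or normal gland 2 the counts were 5 and 6 in non-metastatic and 5 and 3 in metastatic tumours, where the share of all genes called also dropped, to 7.6% and 8.53% in non-metastatic and 4.44% and 4.83% in metastatic tumours. They were 7, 6, 9 and 9 in non-metastatic tumours without non-metastatic tumour 1, non-metastatic tumour 2, metastatic tumour 1 and metastatic tumour 3, and 4, 6 and 2 in metastatic tumours without metastatic tumours 1, 2 and 3. Without normal gland 3 the metastatic count was 16. Over all 9 such fits the share of all genes called ran from 7.6% to 21.2% in non-metastatic and from 3.66% to 16.1% in metastatic tumours.

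Among the other ligands and receptors, 7 genes were tested. Nradd, a membrane protein with a death domain like that of p75, rose by 1.00 in non-metastatic tumours (limma adjusted p = 0.013) and by 0.77 in metastatic tumours (limma adjusted p = 0.036). It was the only 1 of the 7 called in either group, 14.3% against 18.8% of all genes in non-metastatic and 13.3% in metastatic tumours. The sortilin relatives Sorl1, Sorcs1, Sorcs2 and Sorcs3 and the Nogo receptor complex genes Lingo1 and Rtn4r were not called. The median change of the 7 genes was 0.10 in non-metastatic and 0.30 in metastatic tumours.

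Among 11 tested genes of precursor cleavage, 1 rose in non-metastatic tumours and 1 fell in metastatic tumours. That is 9.09% called in each, against 18.8% and 13.3% of all genes. Mmp7, matrilysin, an enzyme able to cut neurotrophin precursors outside the cell, rose by 1.44 in non-metastatic tumours (limma adjusted p = 0.032). It was 0.98 above normal gland in metastatic tumours (limma adjusted p = 0.12). Mmp9, gelatinase B, which can cut the BDNF precursor, fell by 1.61 in metastatic tumours (limma adjusted p = 0.040). Its difference in non-metastatic tumours was -1.26 (limma adjusted p = 0.066).

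Of 28 tested adaptors and effectors of the Trk and p75 receptors, 4 rose and 2 fell in non-metastatic tumours, 21.4% called against 18.8% of all genes. In metastatic tumours 2 rose and 1 fell, 10.7% against 13.3%. Sh2b2, an adaptor protein that binds activated receptor tyrosine kinases, fell by 1.73 in non-metastatic (limma adjusted p = 0.0043) and by 1.86 in metastatic tumours (limma adjusted p = 0.0036). Bex1, a small adaptor protein that binds p75, rose by 2.65 in non-metastatic tumours (limma adjusted p = 0.012) and was 1.63 above normal gland in metastatic tumours (limma adjusted p = 0.059). Its relative Bex3, which also binds p75, rose by 1.44 in non-metastatic tumours (limma adjusted p = 0.027) and was 1.22 above normal gland in metastatic tumours (limma adjusted p = 0.054). Plcg2, a phospholipase C gene best known from blood cells, rose by 1.36 in non-metastatic tumours (limma adjusted p = 0.037). It was 0.90 above normal gland in metastatic tumours (limma adjusted p = 0.14).

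Of 19 tested genes that neurotrophins are known to induce, 3 rose and 1 fell in non-metastatic tumours, 21.1% called against 18.8% of all genes. In metastatic tumours 2 rose, 10.5% against 13.3%, so both shares were near those of all genes. Dusp6, a phosphatase of ERK, rose by 1.48 in non-metastatic (limma adjusted p = 0.014) and by 1.57 in metastatic tumours (limma adjusted p = 0.015). Dusp1, a related phosphatase, fell by 1.85 in non-metastatic tumours (limma adjusted p = 0.032), and its difference in metastatic tumours was -1.36 (limma adjusted p = 0.095). Nr4a1, an orphan nuclear receptor of the immediate early response, rose by 1.32 in non-metastatic tumours (limma adjusted p = 0.044). It was 0.84 above normal gland in metastatic tumours (limma adjusted p = 0.17). Arc, an immediate early gene of neurons, rose by 0.55 and 0.61 in non-metastatic and metastatic tumours (limma adjusted p = 0.043 and 0.040). These genes also answer to many other signals.

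The GDNF family, the other large family of neurotrophic factors, had 8 of 9 genes tested, Gdnf itself lying below the filter. Nrtn, the ligand neurturin, rose by 0.85 in non-metastatic (limma adjusted p = 0.012) and 0.67 in metastatic tumours (limma adjusted p = 0.029). Gfra2, its preferred receptor, fell by 1.48 and 1.58 (limma adjusted p = 0.047 and 0.048). Gfra1, the receptor preferred by GDNF, rose by 1.29 in metastatic tumours (limma adjusted p = 0.021) and was 0.64 above normal gland in non-metastatic tumours (limma adjusted p = 0.12). Ret, the kinase these receptors share, fell by 1.65 in non-metastatic tumours (limma adjusted p = 0.044) and its difference in metastatic tumours was -1.10 (limma adjusted p = 0.16). Artn, Pspn, Gfra3 and Gfra4 were not called.

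With each of the 9 arrays left out in turn, the calls of Sh2b2 and Dusp6 held in all 9 fits in both tumour groups, and those of Nradd, Bex1 and Nrtn held in all 9 in non-metastatic tumours. The other calls held in fewer fits. In non-metastatic tumours Bex3 kept its call in 5 of 9, Mmp7 and Dusp1 in 3, Nr4a1 in 2, and Gfra2, Ret, Plcg2 and Arc in only 1. In metastatic tumours Gfra1 kept its call in 6 of 9, Nradd and Nrtn in 4, Mmp9 in 3, Gfra2 in 2 and Arc in 1.

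Many of these calls ended without normal gland 2, and all of those but Gfra1 in metastatic tumours also ended without normal gland 1. The share of all genes called fell too. In non-metastatic tumours it went from 18.8% to 8.53% without normal gland 2 and 7.6% without normal gland 1. Without normal gland 2, the calls of Gfra2, Ret, Mmp7, Plcg2, Dusp1, Nr4a1 and Arc in non-metastatic tumours ended, at limma adjusted p of 0.10, 0.13, 0.090, 0.079, 0.096, 0.070 and 0.10. Those of Nradd, Nrtn, Gfra1, Gfra2, Mmp9 and Arc in metastatic tumours also ended, at limma adjusted p of 0.075, 0.086, 0.062, 0.11, 0.12 and 0.10. None of these genes changed direction without that gland. Their changes were then -1.55 (Gfra2), -1.46 (Ret), 1.42 (Mmp7), 1.46 (Plcg2), -1.47 (Dusp1), 1.50 (Nr4a1) and 0.56 (Arc) in non-metastatic tumours, and 0.57 (Nradd), 0.64 (Nrtn), 1.10 (Gfra1), -1.64 (Gfra2), -1.36 (Mmp9) and 0.62 (Arc) in metastatic tumours.

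**Figure D5:**
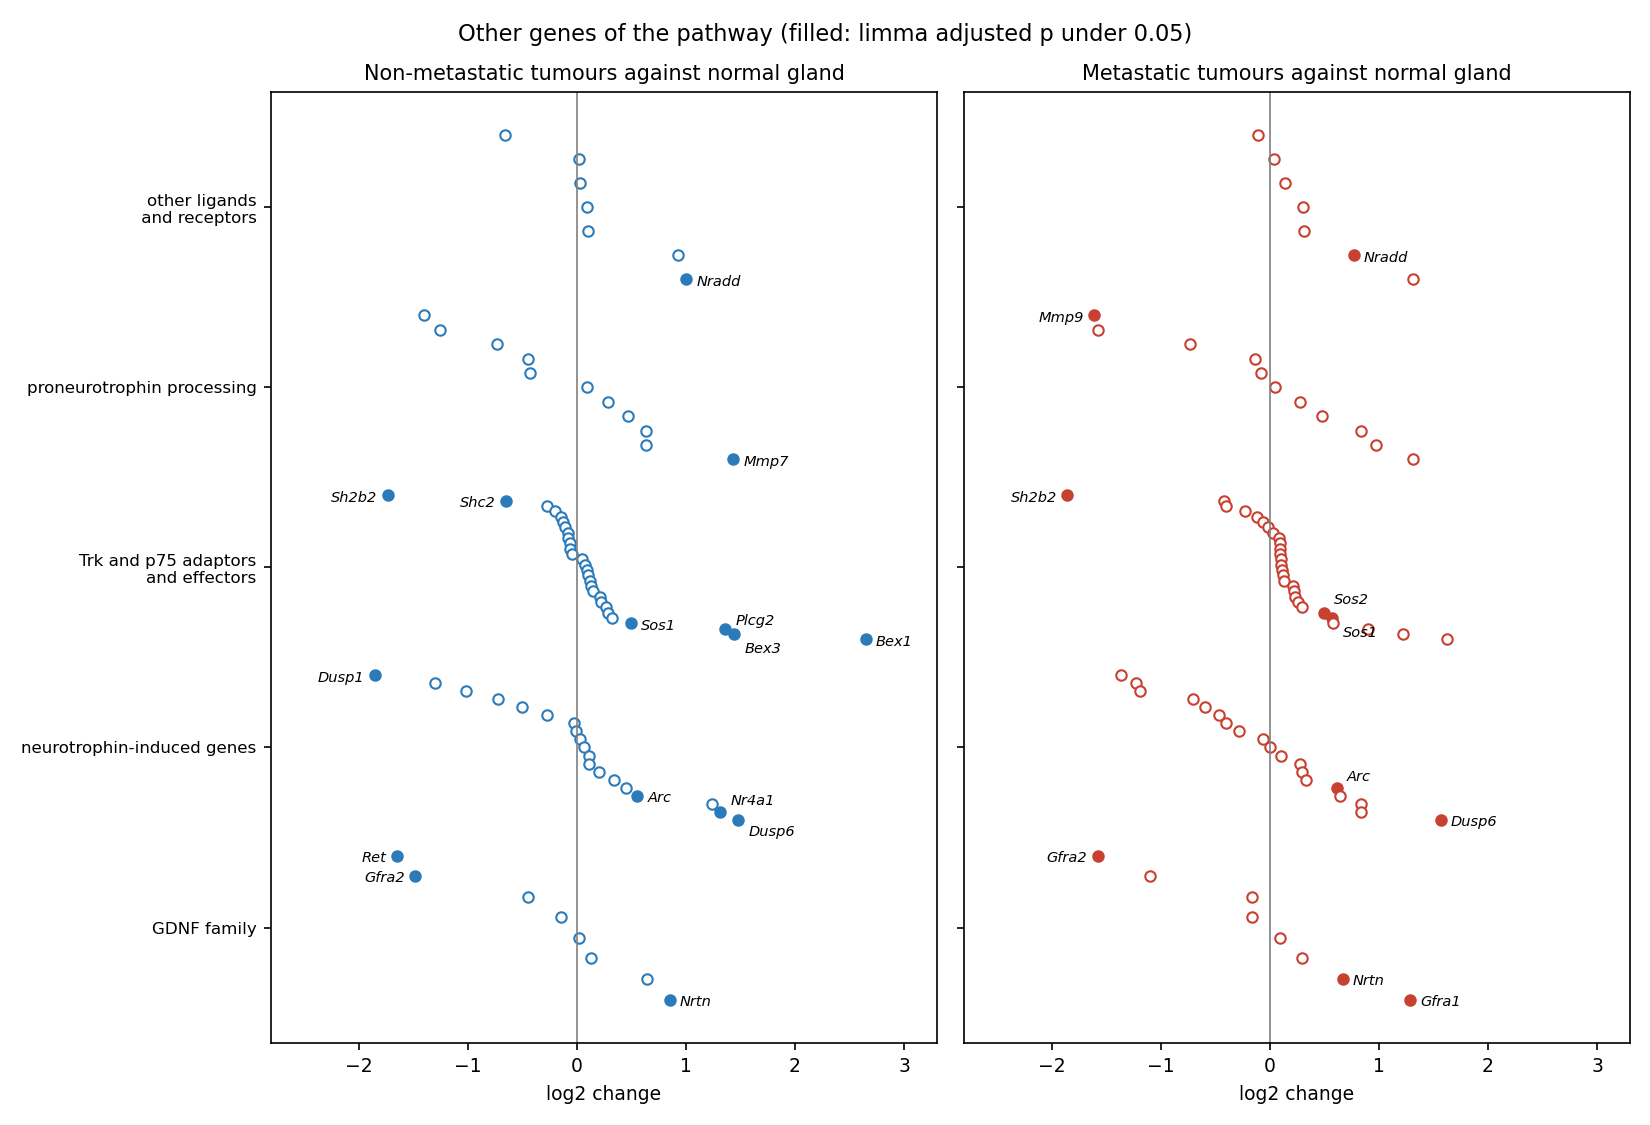
Log2 change from normal gland (horizontal axes, log2 units) of each tested gene of 5 pathway lists (vertical axis, ordered by change within a list) in non-metastatic and metastatic tumours, filled and named at a limma adjusted p under 0.05. Called genes lie on both sides of 0, from Sh2b2 at -1.73 and -1.86 to Bex1 at 2.65 in non-metastatic tumours.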

How the data were processed

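The authors deposited log2 expression values of 41345 probe sets on each of 9 Affymetrix Mouse Gene 2.0 ST arrays, made with RMA per the submitters' processing notes. RMA corrects background, equalises the arrays and summarises probes. Its version and the genome build are not given in the sources used here, and no detection calls or scanner files were used. The annotation gave 1 symbol to 23521 probe sets, several to 1814, and did not list 16010. Array medians ran from 5.80 to 5.94, so nothing was normalised further. With no reads there is no depth, so precision rests on the number of arrays.

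Genes were kept where 3 or more arrays had them above the 30th percentile, 17478 of 22180, and all 6 measured members were among them. The 3 groups' means were estimated together from 9 arrays with limma 3.58.1 (R 4.3.3) and eBayes. Tests were two-sided, with Benjamini-Hochberg adjustment over the 17478 genes. A run on simulated data was checked only for the direction and size of the estimates.

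The members and lists were chosen with earlier results of these data known. All members are named, as are Wnt1, every gene of the list of other ligands and receptors and of the GDNF family, up to 4 called genes with the largest change of each other pathway list, marker genes where a member moved with them (some list genes are not reported here), and the 5 genes nearest to a member with an SD of at least 1. Promoter windows came from RefSeq (GRCm38.p6), used for sequence only. Alternatives were the filter, the use of several probe sets, normalisation, the variance prior, array weights, a fit of only the groups compared, a block for replicate numbers, and each array left out.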

Additional observations from a re-analysis of the deposited data

Results flagged for a closer look

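Sorl1, a sortilin relative, lay below the normal mean in every non-metastatic tumour and above it in every metastatic tumour. It was picked by this pattern, as the only gene among the members and named pathway genes to show it. Relative to that mean it was -1.14, -0.67 and -0.15 in non-metastatic tumours 1 to 3, and 0.18, 0.54 and 0.22 in metastatic tumours 1 to 3. The metastatic mean was 0.97 above the non-metastatic mean. This difference was not tested. Against normal gland neither group passed, with -0.65 in non-metastatic (limma adjusted p = 0.12) and 0.31 in metastatic tumours (limma adjusted p = 0.46). The normal glands themselves ran from 8.31, in normal gland 2, to 8.85, in normal glands 1 and 3. The metastatic tumours ran from 8.85 to 9.21. Without normal gland 2 the metastatic difference from normal gland was 0.13 (limma adjusted p = 0.81). The non-metastatic difference was then -0.83 (limma adjusted p = 0.10). Non-metastatic tumour 3, at 8.52, lay within the range of the normal glands.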

How the results depend on the processing

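The direction of Ntrk2, Ntf5, Sort1 and Bdnf against normal gland held under every alternative run. Ngfr reversed once, to -0.27 in non-metastatic tumours without non-metastatic tumour 2 (limma adjusted p = 0.73), within a range of -0.27 to 0.47 over the arrays left out. Members called in metastatic tumours, 2 in the fit reported, numbered 0 without the filter, 0 with only the groups compared, and 1 with quantile normalisation, median centring or an intensity trend. In non-metastatic tumours, 1 in the fit reported, they numbered 0 with only the groups compared and 2 with the mean of the probe sets, with array weights, or with the second Sort1 probe set, an alternative chosen after seeing the data. Over both groups, 2 in the fit reported, 1 was called without the filter, and 3 with the mean of the probe sets, array weights or the second Sort1 probe set. The last 2 of these settings also gave 3 in metastatic tumours. Pathway genes called with array weights numbered 23, 31 and 32 in non-metastatic, metastatic and both tumour groups (15, 10 and 20 in the fit reported), while the share of all genes called rose to 30.7%, 37.2% and 43.5%, and 7 in non-metastatic tumours with only the groups compared, where 8.77% of all genes were called. The causes were not tested.

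With each array left out, members called ranged from 0 to 1, 0 to 2 and 0 to 3 in non-metastatic, metastatic and both groups, members without overlap between tumour groups from 1 to 3, and pathway genes called from 5 to 12, 2 to 16 and 8 to 18. The share of all genes called moved as well, from 7.6% to 21.2%, 3.66% to 16.1% and 10.8% to 23.5%. The replicate numbers name different mice and did not pair the samples: of 9 same-number pairs 2 had a correlation of deviations over 0.1 (range -0.28 to 0.17). With the replicate block 0 members were called in metastatic tumours, 1 over both groups and 1 in non-metastatic tumours, with limma adjusted p of 0.080 for Ntrk2 and 0.073 for Ntf5 in metastatic tumours. The share of all genes called with the block was 7.43% in metastatic tumours, 17.8% over both groups and 12.9% in non-metastatic tumours.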
